A study of Mus musculus with 15 samples.

Results

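The levels of 9 genes that build or bind the perineuronal net were followed through the cells of the mouse prefrontal cortex (PFC). The genes were taken by symbol from a list of net components, which was drawn up with earlier results of these data known, and all 9 were found among the 26145 genes listed: Acan, Bcan, Ncan and Vcan (the lecticans aggrecan, brevican, neurocan and versican), Hapln1 and Hapln4 (link proteins), Tnr (tenascin-R), Has3 (a hyaluronan synthase) and Ptprz1 (a receptor phosphatase). Single cells had been captured in droplets with the 10X Chromium system from male C57BL/6N mice, in 15 libraries. Of these, 12 came from adults labelled 8 to 10 weeks, each library pooled from 2 mice, and 3 from mice labelled 3 weeks (P21). All adults went through intravenous self-administration (IVSA), of cocaine in 6 libraries and of saline in the other 6, and were taken during the maintenance period, after 48 h of withdrawal or after 15 days of withdrawal, with 2 libraries for each drug and period. The P21 mice had no such history, so age and the IVSA procedure cannot be told apart in the comparison of P21 with saline adults. The methods give 4 mice at P21 in pools of 2, so some of the 3 libraries may share animals, and p-values then measure partly technical spread. Titles name the PFC while another label names the nucleus accumbens; 14433 of the 24822 adult cells were excitatory neurons.

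Retained cells of a library held 8375172 to 42892922 unique molecular identifiers (UMIs, each a counted mRNA molecule), with a median of 3426 to 11334.5 UMIs per cell. Cells were used where the deposited class and the deposited cluster name agreed, 34868 of 35360 cells. Of the 492 others, 459 were P21 cells, 256 of them in P21 library 1. Between any 2 libraries, barcodes shared by retained cells came to at most 1.09% of the retained cells of the smaller library. The share over all other libraries together was not computed. In the adult libraries the summed level of 5 excitatory marker genes was 918 to 1160 CPM in excitatory neurons and 6.49 to 165 CPM in inhibitory neurons, and that of 4 inhibitory marker genes was 0.483 to 6.31 and 3446 to 5641 CPM. CPM is the number of UMIs of a gene for every 1000000 UMIs of a class in a library, mitochondrial and ribosomal protein genes left out; it compares 1 gene across cells, not genes of different length with each other.

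Perineuronal nets are lattices of extracellular matrix that wrap the cell body and proximal dendrites of certain neurons, in the cortex mostly of parvalbumin (Pvalb) interneurons. Long chains of hyaluronan, extruded at the membrane by hyaluronan synthases, carry lecticans, which are chondroitin sulphate proteoglycans. Link proteins clamp the lecticans to hyaluronan, and tenascin-R joins their other ends. Ptprz1 binds chondroitin sulphate ligands and tenascins, and its secreted form, phosphacan, is itself a proteoglycan of the matrix. In the rodent cortex the juvenile matrix, rich in neurocan, gives way to the adult matrix as nets form after birth.

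In the mouse genome (NCBIM37, the build of the deposited counts) Acan lies on chr7:86198369-86259985, Bcan on chr3:87791453-87804278, Ncan on chr8:72616984-72644772, Vcan on chr13:89794915-89882117, Hapln1 on chr13:89680241-89751437, Hapln4 on chr8:72607428-72614761, Tnr on chr1:161667641-161855053, Has3 on chr8:109394142-109406802 and Ptprz1 on chr6:22825502-23002916. Each lectican gene has a link protein gene as its neighbour, with 0 annotated genes between them. Ncan and Hapln4 are 2222 bases apart and Vcan and Hapln1 43477 bases apart, on opposite strands with their 3′ ends facing. Acan ends 40 bases from Hapln3, which lies on the other strand, and how UMIs between the 2 ends were assigned was not tested.

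Promoter sequence was found for 7 of the 9 genes (RefSeq, GRCm38.p6). The 250 bases upstream of the annotated start are shown 5′ to 3′ for the 4 genes whose level in excitatory neurons was lower in adults than at P21, with each GC box (GGGCGG on either strand) in capitals:
Ncan (chr8:70120845-70121094, - strand): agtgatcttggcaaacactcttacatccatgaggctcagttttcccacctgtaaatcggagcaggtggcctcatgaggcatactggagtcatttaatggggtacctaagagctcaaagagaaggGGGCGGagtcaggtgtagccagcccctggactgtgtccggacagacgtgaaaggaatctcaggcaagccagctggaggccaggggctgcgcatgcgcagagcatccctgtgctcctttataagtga
Vcan (chr13:89742513-89742762, - strand): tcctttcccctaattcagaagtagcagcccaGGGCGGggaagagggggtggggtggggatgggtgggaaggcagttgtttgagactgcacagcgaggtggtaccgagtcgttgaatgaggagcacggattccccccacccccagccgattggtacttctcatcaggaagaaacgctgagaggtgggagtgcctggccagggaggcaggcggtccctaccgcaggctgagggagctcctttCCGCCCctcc
Hapln1 (chr13:89540386-89540635, + strand): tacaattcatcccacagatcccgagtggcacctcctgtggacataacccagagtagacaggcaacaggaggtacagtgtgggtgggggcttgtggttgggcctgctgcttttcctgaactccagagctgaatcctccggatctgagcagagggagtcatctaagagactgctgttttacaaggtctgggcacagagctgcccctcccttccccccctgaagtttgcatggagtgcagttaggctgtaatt
Ptprz1 (chr6:22875252-22875501, + strand): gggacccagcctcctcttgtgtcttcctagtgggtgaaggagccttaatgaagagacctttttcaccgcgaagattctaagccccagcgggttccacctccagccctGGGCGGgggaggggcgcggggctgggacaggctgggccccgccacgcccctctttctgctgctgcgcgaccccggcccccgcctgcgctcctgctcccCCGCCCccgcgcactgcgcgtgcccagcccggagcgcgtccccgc
A GC box was present upstream of Ncan, Vcan and Ptprz1 and not of Hapln1. Of the other members with a promoter, Acan held 3, Bcan 1 and Tnr 0; 32.9% of 27025 mouse promoters of this length hold one. The 2 boxes of Vcan begin 219 and 10 bases before the start, those of Ptprz1 143 and 45 bases before it, and the box of Ncan 126 bases before it. A match is a description of the letters and not a sign of binding.

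Each lectican was highest in OPC or newly formed oligodendrocytes, and Bcan and Ncan were high in astrocytes too (plot of levels by class). Values are means ± SD over the adult libraries with at least 10 cells of a class (n = 11 for OPC, newly formed oligodendrocytes and astrocytes, n = 12 for all other classes); they are a description, and no test was made between classes. Acan, the main lectican of mature nets, was at 52.0 ± 13.2 CPM (n = 11) in oligodendrocyte precursors (OPC) and 30.3 ± 18.7 CPM (n = 11) in newly formed oligodendrocytes (NF Oligo), 2 classes whose libraries overlapped. It was at 0.353 ± 0.692 CPM (n = 12) in inhibitory and 0.279 ± 0.214 CPM (n = 12) in excitatory neurons, and listed at 0 in every library of astrocytes and microglia. Only 5 of 1168 inhibitory cells held an Acan UMI (0.428%, 95% Wilson interval 0.183 to 0.998%, median depth 7202 UMIs), against 37 of 14433 excitatory cells (0.256%, median depth 12455 UMIs) and 0 of 1495 astrocytes (median depth 3211 UMIs), where a count of 0 allows up to 0.201% of cells with a UMI by the rule of 3 counts of the total. In Inhib_6, the cluster with the highest Pvalb level (1633 CPM in adults), 1 of 43 adult cells and 4 of 155 P21 cells held an Acan UMI. In Inhib_7, with 256 CPM of Pvalb in adults, 2 of 392 adult cells did. Most neuronal Acan UMIs of adults lay in the excitatory cluster Exc_2, where 27 UMIs in 430 cells gave 5.48 CPM (95% Poisson interval 3.61 to 7.97). The interval of Inhib_6, with 3.09 CPM from 1 UMI (0.0783 to 17.2), spans that of Exc_2, and at P21 Inhib_6 held 3.95 CPM and Exc_2 3.01 CPM. The UMIs of Exc_2 were 27 of the 42 Acan UMIs of all adult excitatory neurons. Intervals cover counting error only.

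Bcan was at 586 ± 145 CPM in NF Oligo, 456 ± 55.8 CPM in astrocytes and 398 ± 51.2 CPM in OPC (n = 11 each), neighbours in this order that overlapped, and at 1.82 to 6.996 CPM on average in all other classes. No library of OPC overlapped any library of the next class. Vcan was at 468 ± 73.1 CPM in OPC and 239 ± 59.5 CPM in NF Oligo, without overlap between them, and at 7.83 ± 7.89 CPM in inhibitory neurons and less elsewhere. Its highest neuronal cluster was Inhib_8 with 41.7 CPM (25.1 to 65.1).

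Among neuronal clusters Bcan and Vcan were highest in Inhib_8 (48 cells), at 24.1 and 41.7 CPM. The Bcan level there came from 11 UMIs (12.0 to 43.2 CPM), 6 of them in 4 cells of saline library 7. Its interval overlapped those of Inhib_6 (21.6 CPM, 8.70 to 44.6) and Inhib_4 (15.1 CPM, 5.54 to 32.9). Ncan differed from the other lecticans in that neurons of both classes carried it broadly. OPC held 228 ± 35.5 CPM and astrocytes 179 ± 25.3 CPM (n = 11 each), then excitatory neurons 77.0 ± 5.64 CPM and inhibitory neurons 45.2 ± 7.72 CPM (n = 12 each). Libraries of astrocytes, excitatory neurons and inhibitory neurons did not overlap in this order. Across the 26 excitatory clusters Ncan ran from 50.2 CPM (44.7 to 56.2) in Exc_21 to 137 CPM (121 to 155) in Exc_20, followed by Exc_3 with 113 CPM and Exc_18 with 106 CPM.

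The link proteins divided between cell types. Hapln1 was at 133 ± 52.9 CPM in inhibitory neurons and 126 ± 35.4 CPM in astrocytes, values within 1 SD of each other, at 33.97 ± 19.0 CPM in OPC and at 0.498 ± 0.302 CPM in excitatory neurons. Within inhibitory neurons it was concentrated in Inhib_8, with 362 CPM (309 to 421, 48 cells), and Inhib_7, with 258 CPM (241 to 275, 392 cells), and at 0 UMIs in the 36 cells of Inhib_1, whose Sst level was 40342 CPM. Of Inhib_7 cells 67.3% held a Hapln1 UMI (35.5% after each cell was thinned to 2000 UMIs; median depth 8365 UMIs), against 0.644% of excitatory cells (0.173% thinned; median depth 12455 UMIs). Of the 108 excitatory Hapln1 UMIs of adults 52 lay in 1 cluster, Exc_21, at 8.64 CPM (6.45 to 11.3), and no other cluster held more than 7. Hapln4, the link protein of nets and synapses on adult neurons, was found chiefly in neurons, with 24.1 ± 3.32 CPM in the excitatory class and 18.3 ± 7.89 CPM in the inhibitory class, within 1 SD of each other, and at 0.741 to 7.73 CPM on average in glia, endothelial cells and microglia. Its highest level was in Inhib_6, the cluster with the highest Pvalb level, with 61.8 CPM (37.8 to 95.5, 20 UMIs in 43 cells, but 0 in the only library with at least 10 of these cells). Next came Inhib_8 with 37.3 CPM and Exc_2 with 34.3 CPM (29.3 to 39.9), while Exc_21 held 6.98 CPM. Pvalb was also found in Inhib_7, at 256 CPM in 392 adult cells, where Hapln4 was at 28.6 CPM.

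Tnr was at 141 ± 49.4 CPM in NF Oligo and 94.4 ± 38.1 CPM in OPC, which overlapped, and at 9.39 ± 1.70 CPM in excitatory neurons, where Exc_4 was highest with 17.0 CPM (14.4 to 20.1). Has3 was barely detected in any class. A Has3 UMI was found in 24 of 14433 adult excitatory cells (0.166%, median depth 12455 UMIs) and in 0 of 1495 astrocytes (median depth 3211 UMIs). Ptprz1, which is abundant in glial progenitors, was at 1359 ± 309 CPM in OPC, 341 ± 97.8 CPM in astrocytes and 168 ± 51.8 CPM in NF Oligo; OPC libraries lay above all those of astrocytes. Inhibitory neurons held 36.6 ± 19.1 CPM, with 132 CPM (108 to 160.0) in Inhib_9, a cluster with 18206 CPM of Vip, and excitatory neurons 2.69 ± 0.890 CPM.

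**Figure D1:**
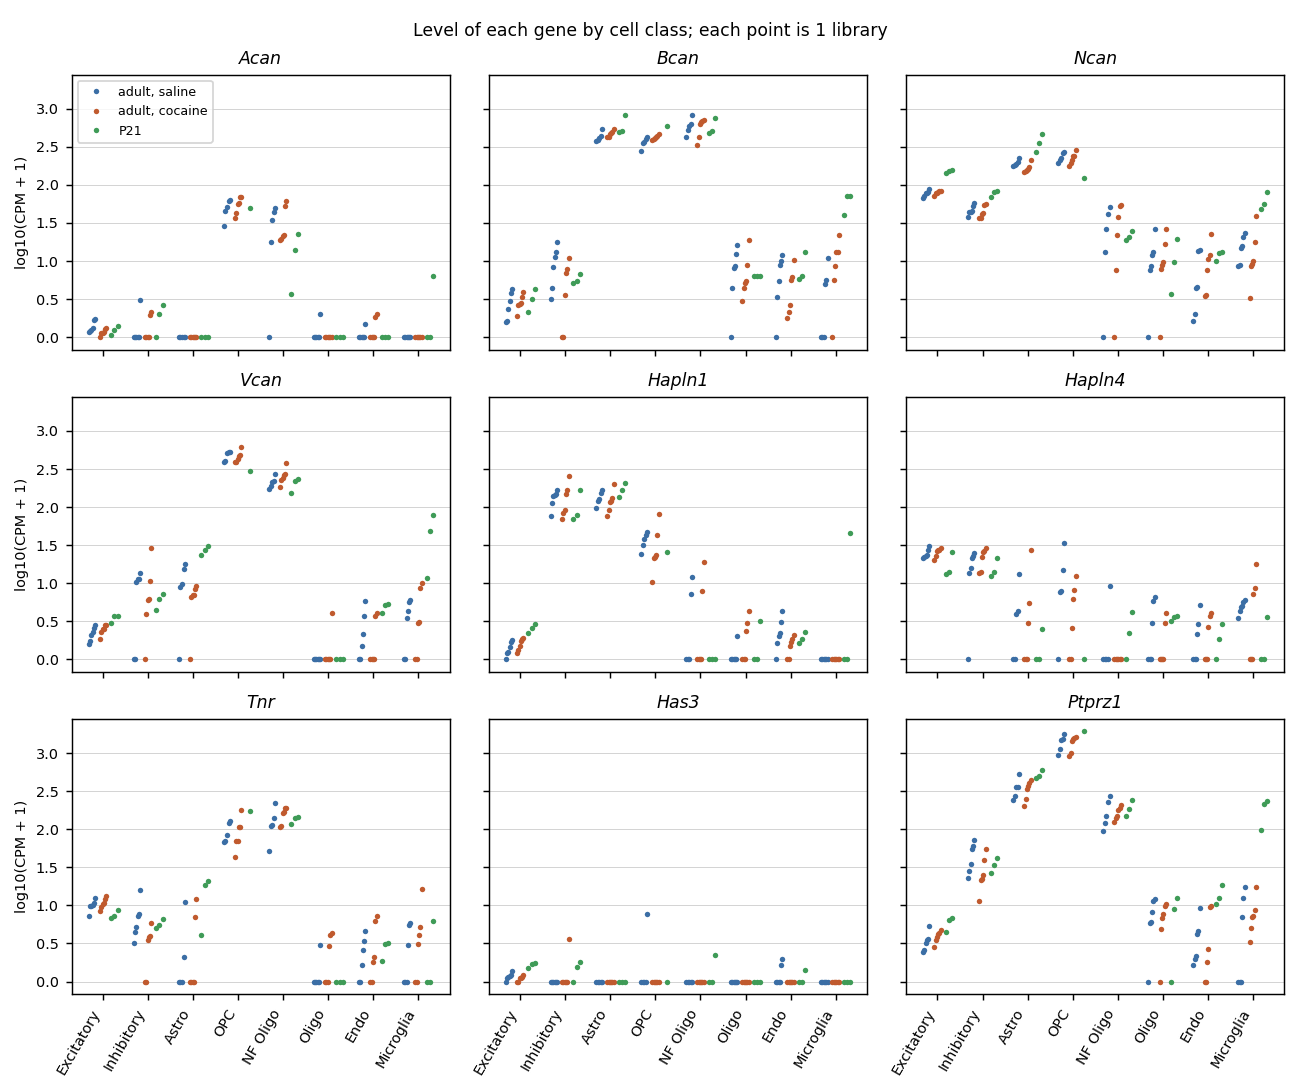
Level of each of the 9 genes (y axis, log10 of CPM + 1) in each cell class (x axis), with 1 point for each library of at least 10 cells; colours separate saline adults, cocaine adults and P21. Acan and Vcan stand highest in OPC and NF Oligo, Ncan spans glia and neurons, Hapln4 is highest in neurons, and Has3 lies near 0 throughout.

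Genes with the most similar pattern were found over 82 clusters of at least 50 adult cells, by the Pearson correlation of log2(CPM + 1) with 12181 genes; clusters share libraries, so the values are a description. Acan was nearest to Chst5 (r = 0.951), C1ql1 and Neu4, Bcan to Gpr37l1 (r = 0.957), Sox21 and Timp4, Vcan to Angptl1 (r = 0.908), Neu4 and Fam70b, and Ptprz1 to Sox21 (r = 0.909), Mro and Bcan (r = 0.890). Ncan was nearest to Dclk1 (r = 0.921), Gpm6a and Ntrk2. Hapln1 was nearest to Gm16738 (r = 0.885), Pax6 and Fam69c, Hapln4 to Ppp3r1 (r = 0.875), Kcnj11 and Snph, and Tnr to Opcml (r = 0.847), 1700086L19Rik and Scel. Has3 did not reach 20 CPM in any cluster and was left out. Between members, r was 0.870 for Acan with Vcan, 0.802 for Hapln1 with Ptprz1 and 0.00572 for Hapln1 with Hapln4.

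The first comparison asked which of these genes differ between P21 and adult saline mice within a cell class. UMIs were summed per library and class and tested with edgeR's quasi-likelihood test; a gene is named as called where its Benjamini-Hochberg adjusted p over all genes tested is below 0.05 and its level differs by more than 1.5-fold. All differences are adult minus P21 on the log2 scale, with their SE. In excitatory neurons 4 of the 7 members tested were called, all lower in adults: Ncan, Vcan, Hapln1 and Ptprz1. Over all 13088 genes tested there 18% were called, and 9.99% called and lower. Hapln1 passed the filter on low counts, at 0.750 CPM in at least 3 libraries, through the P21 libraries alone (3 of 3, against 1 of 6 saline libraries), so that its presence among the genes tested favoured a fall; without the filter it was at -1.50 (adjusted p = 0.00776, called).

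Ncan in excitatory neurons was at 141, 151 and 155 CPM in the 3 P21 libraries, while the 6 saline libraries ran from 66.2 through a median of 77.6 to 86.6 CPM. All P21 libraries lay above all saline libraries. The log2 fold change was -0.92 ± 0.08 (adjusted p = 8.87e-06), and it stayed between -0.96 and -0.89, and called, under all 22 alternatives. Vcan was at 2.77, 2.69 and 2.03 CPM at P21 and from 0.616 through 1.19 to 1.82 CPM in saline adults, again without overlap, with a log2 fold change of -0.998 ± 0.27 (adjusted p = 0.0105). Hapln1 was at 1.20, 1.87 and 1.58 CPM at P21 and from 0 through 0.353 to 0.810 CPM in saline adults, without overlap, with a log2 fold change of -1.50 ± 0.41 (adjusted p = 0.0118). These levels of Vcan and Hapln1 rest on few molecules, 129 and 74 UMIs at P21. Ptprz1 was at 5.49, 5.78 and 3.45 CPM at P21 and from 1.48 through 2.35 to 4.40 CPM in saline adults, so that the groups overlapped, with a log2 fold change of -0.87 ± 0.28 (adjusted p = 0.0239). Its call was lost in 5 of 22 alternatives: without P21 library 1 (-0.75, adjusted p = 0.0768), without P21 library 2 (-0.76, adjusted p = 0.0851), with these 2 libraries summed (-0.78, adjusted p = 0.0619), without the maintenance saline libraries (-0.82, adjusted p = 0.0673) and with equal numbers of cells (-0.70, adjusted p = 0.198).

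Markers of other cells in the excitatory sums moved with age as well. The summed level of 5 OPC markers was 12.8 to 16.1 CPM at P21 and 6.03 to 10.8 CPM in saline adults, that of 4 inhibitory markers 5.95 to 8.14 and 0.483 to 6.31 CPM, that of 6 oligodendrocyte markers 79.2 to 194 and 21.3 to 77.5 CPM, and that of 6 astrocyte markers 37.4 to 59.7 and 66.5 to 148 CPM; no marker of these lists was at 0 at either age. Their part in the values of Vcan, Hapln1 and Ptprz1, each far higher in OPC or inhibitory neurons, was not tested.

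Hapln4 and Tnr had higher means in adult excitatory neurons and were not called. Hapln4 was at 24.5, 12.95 and 12.2 CPM at P21 and from 20.7 through 22.3 to 29.5 CPM in saline adults, with P21 library 1 inside the adult range. Its log2 fold change was 0.52 ± 0.20 (adjusted p = 0.0588), and without P21 library 1 it was 0.95 (adjusted p = 0.000114, called). Tnr was at 7.70, 5.87 and 6.23 CPM at P21 and from 6.27 through 8.94 to 11.6 CPM in adults, with overlap; its log2 fold change of 0.52 ± 0.16 (adjusted p = 0.0228) was under 1.5-fold, and it was called without P21 library 1 (0.67, adjusted p = 0.00959), without the maintenance saline libraries (0.60, adjusted p = 0.0112) and with no fold threshold. Bcan, at 3.29, 1.14 and 2.18 CPM at P21, gave -0.21 ± 0.46 (adjusted p = 0.747), but -1.28 (adjusted p = 0.0416, called) when the class of a cell was taken from its cluster alone and 0.29 without P21 library 1. Acan and Has3 did not pass the filter on low counts. Has3 was at 0.682, 0.733 and 0.525 CPM at P21 and from 0 to 0.369 CPM in saline adults, that is 33 UMIs at P21, and a UMI was found in 0.583% of P21 excitatory cells (0.143% thinned; median depth 8299.5 UMIs) and 0.166% of adult ones (0.0277% thinned).

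**Figure D2:**
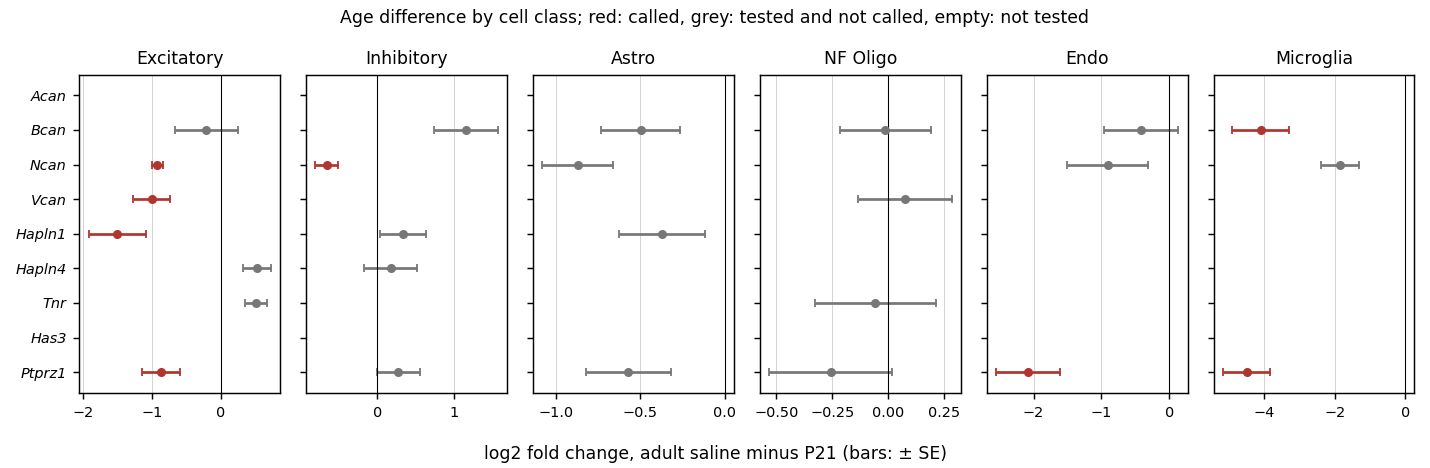
Log2 fold change of adult saline minus P21 (x axis, with its own scale in each panel; bars ± SE) for each gene tested (y axis) in 6 cell classes; red points are called and grey points are not. Ncan lies at -0.92 in excitatory and -0.66 in inhibitory neurons, while Hapln1 and Ptprz1 lie on opposite sides of 0 in the 2 neuron classes.

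In inhibitory neurons 1 of 5 members tested was called, Ncan, and it was lower in adults; 14.1% of the 8749 genes tested were called and 8.36% called and lower. Ncan was at 68.4, 81.3 and 79.4 CPM at P21 and from 37.1 through 44.1 to 57.5 CPM in saline adults, without overlap, with a log2 fold change of -0.66 ± 0.15 (adjusted p = 0.00492). Hapln1 was at 164, 76.7 and 69.6 CPM at P21 and from 75.6 through 139 to 166 CPM in adults, where P21 library 1 stood at the top of the adult range and the other two near or below its lowest value. Its log2 fold change was 0.33 ± 0.30 (adjusted p = 0.480), and 0.86 (adjusted p = 0.00183, called) without P21 library 1. Ptprz1 gave 0.28 ± 0.28 (adjusted p = 0.526) and Hapln4 0.17 ± 0.35 (adjusted p = 0.775). Bcan, at 4.45, 5.72 and 4.10 CPM at P21 and from 2.16 through 8.94 to 17.0 CPM in adults, gave 1.15 ± 0.41 (adjusted p = 0.0562). It stayed uncalled in 13 of 18 alternatives, with log2 fold changes from 0.79 to 1.31. Its calls included those without saline library 3 (1.25, adjusted p = 0.0389) and without saline library 5 (1.31, adjusted p = 0.0292). The 6 astrocyte markers summed to 73.2 to 115 CPM in inhibitory neurons at P21 and 110 to 459 CPM in saline adults, and their part in the Bcan value was not tested. Bcan passed the filter on low counts (10.5 CPM) through saline libraries alone, with 0 of 3 P21 and 3 of 6 saline libraries above it. Among interneuron markers in this class, 5 Pvalb cell markers summed to 1420 to 1779 CPM at P21 and 260 to 952 CPM in saline adults, and 3 Sst cell markers to 11246 to 13692 and 55.0 to 8252 CPM; their part in the values of this class was not tested either.

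The difference between the neuron classes in the age change was tested itself, with both sums of a library paired by a term for the library. Of 7 members tested 3 were called, each with a higher value of adult minus P21 in inhibitory than in excitatory neurons, where 5.88% of 12547 genes were called and 2.95% called and higher. The difference was 1.77 ± 0.49 on the log2 scale for Vcan (adjusted p = 0.0122), 1.70 ± 0.46 for Hapln1 (adjusted p = 0.0297) and 1.09 ± 0.33 for Ptprz1 (adjusted p = 0.0325). For Ncan it was 0.25 ± 0.14 (adjusted p = 0.323). These calls depended on single libraries: Vcan was not called without P21 library 1, P21 library 2 or saline library 11, Hapln1 without P21 library 3 or any of saline libraries 2, 5, 7 and 11, and Ptprz1 without P21 library 1, P21 library 2 or any of saline libraries 2, 5 and 7, with 1 to 3 members called each time. DESeq2 called Hapln1 alone. Vcan did not pass the filter on low counts in the fit of inhibitory neurons alone. Its highest inhibitory clusters in adults were Inhib_8 (41.7 CPM, 19 UMIs) and Inhib_7 (13.7 CPM, 47 UMIs). Pooled over libraries, these 2 clusters were 10.5% of inhibitory cells at P21 and 41.1% in saline adults. The part of this share in the Vcan difference was not tested.

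The Ncan difference was next examined within single neuronal clusters. Each of 29 clusters with at least 2 libraries of each age was fitted alone; Ncan was tested in 28 of them, lay below 0 in all 28, and was called lower in adults in 21, with log2 fold changes of -1.17 to -0.59 among the called. Over the 178019 tests of all genes in these clusters 6.22% were called and lower. The clusters share the same libraries, so their tests are not independent and the counts of clusters are a description. Pooled levels of Ncan ran from 66.8 through a median of 140 to 194 CPM at P21 and from 22.9 through 76.7 to 146 CPM in saline adults. Exc_21 gave the largest called change (-1.17 ± 0.20, adjusted p = 0.000137), followed by Exc_22 (-1.12 ± 0.17, adjusted p = 3.86e-05). The clusters without a call were Exc_4, Exc_11, Exc_16, Exc_20, Exc_26, Inhib_2 and Inhib_7. In Inhib_2 Ncan passed the filter on low counts (26.1 CPM) through P21, with 3 of 3 P21 and 2 of 3 saline libraries above it. Its presence among the 28 clusters therefore favoured a fall. P21 neurons had been assigned to adult clusters by correlation, so a cluster name may not hold the same cells at both ages.

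**Figure D3:**
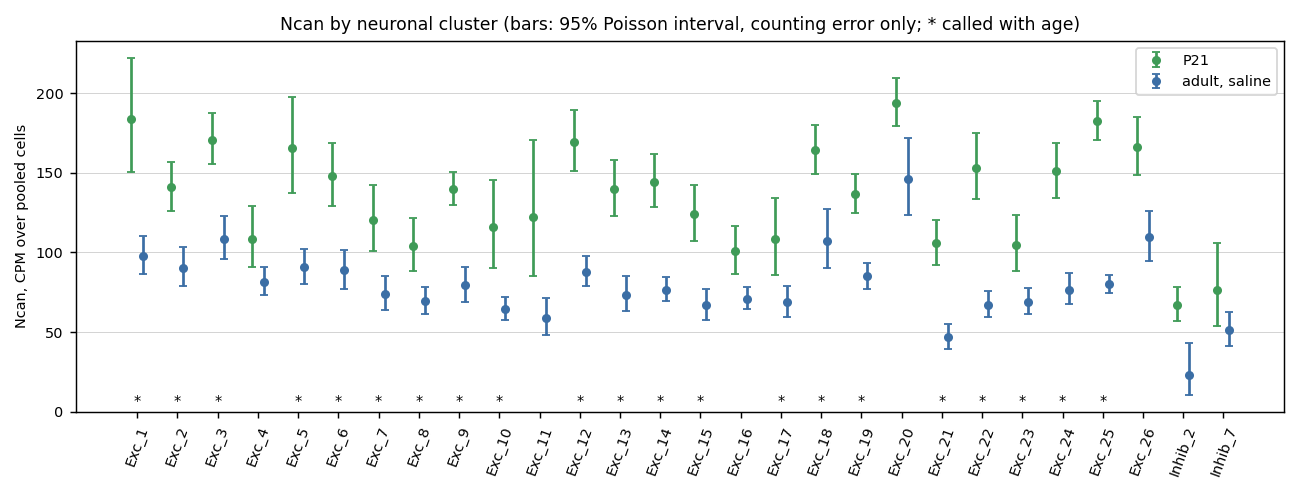
Ncan level (y axis, CPM over the pooled cells of a cluster) at P21 and in saline adults for the 28 neuronal clusters where it was tested (x axis); bars are 95% Poisson intervals, which cover counting error only, and a star marks a cluster called with age. P21 lies above saline adults in every cluster shown, from 66.8 against 22.9 CPM in Inhib_2 to 194 against 146 CPM in Exc_20. In Inhib_2 Ncan passed the filter on low counts through the P21 libraries.

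Hapln1 was tested in 2 clusters and called lower in adults in both. In Inhib_7 it was at 609, 896 and 1069 CPM at P21 and at 261, 199, 258 and 275 CPM in the 4 saline libraries with at least 10 cells, without overlap, a log2 fold change of -1.76 ± 0.19 (adjusted p = 1.42e-06), where 2.22% of genes were called and lower. In Exc_21 it was at 22.7, 33.6 and 22.2 CPM at P21 and from 0 to 11.02 CPM in 6 saline libraries, without overlap, a log2 fold change of -1.84 ± 0.40 (adjusted p = 0.00172), where 6.6% of genes were called and lower. Of these libraries 3 of 3 at P21 and 0 of 6 of saline adults reached the filter on low counts (17.1 CPM), so that Hapln1 was tested there through P21 alone; without the filter it was at -1.84 (adjusted p = 0.000358). Exc_21 held 54 of the 74 Hapln1 UMIs of P21 excitatory neurons and 20 of the 49 of saline adults. Inhib_8 had too few cells for a test; its pooled level was 1074 CPM at P21 (23 cells) and 322 CPM in saline adults (25 cells).

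The age difference of Hapln1 within these clusters and that over all inhibitory neurons differed in sign, and the makeup of the class differed with age too. Inhib_7 and Inhib_8 together were 19.6, 7.80 and 5.57% of the inhibitory cells of the 3 P21 libraries and from 15.8 through 39.1 to 45.8% in saline adults, and they held 75.3% of the inhibitory Hapln1 UMIs at P21 and 87.4% in saline adults. Inhib_7 cells of adults also held 256 CPM of Pvalb, 476 CPM of Sst and 325 CPM of Tac1, against 0, 26.9 and 4.14 CPM at P21; whether other cells share the adult cluster was not tested.

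**Figure D4:**
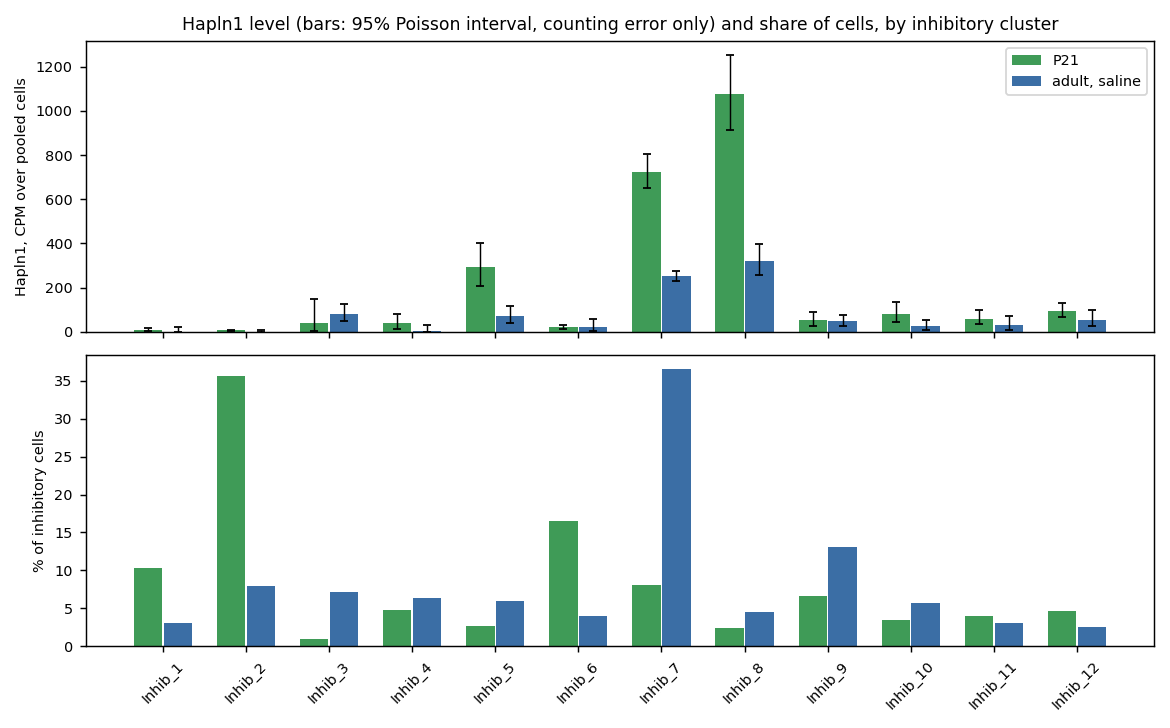
Top: Hapln1 level (y axis, CPM over the pooled cells, with 95% Poisson intervals for counting error) in the 12 inhibitory clusters (x axis) at P21 and in saline adults. Bottom: share of all inhibitory cells in each cluster (y axis, %). Inhib_8 stands at 1074 CPM at P21 and 322 CPM in adults, and Inhib_7 is both lower in level and larger in share in adults.

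Hapln4 was tested in 19 clusters and called higher in adults in Exc_4 alone, where 2.8% of genes were called and higher. In 14 of the 19, Exc_4 among them, it passed the filter on low counts through the saline libraries alone, so no count of directions is drawn from them. It was at 8.33, 6.27 and 6.28 CPM there at P21, from 2 or 3 UMIs a library, and at 8.27, 13.3, 31.2, 13.1, 26.7 and 26.7 CPM in saline adults, with the lowest adult library below the highest P21 library. The log2 fold change was 1.60 ± 0.51 (adjusted p = 0.0463), and DESeq2 did not call it (adjusted p = 0.118), while edgeR without the filter did (1.62, adjusted p = 0.0254). Tnr, in 2 clusters, and Ptprz1, in 3, were called in none.

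None of the 4 members tested in astrocytes was called by edgeR, against 0.811% of 5672 genes, with 2 of the 4 at an unadjusted p under 0.05. Ncan was at 271, 354 and 469 CPM at P21 and at 180, 186, 225, 197 and 177 CPM in 5 saline libraries, without overlap, yet its log2 fold change of -0.87 ± 0.21 missed the threshold (adjusted p = 0.0616); DESeq2 called it (-0.89, adjusted p = 0.0426), as did the fit without P21 library 1 (-1.05, adjusted p = 0.0137), while it was -0.68 (adjusted p = 0.298) without P21 library 3 and -0.40 (adjusted p = 0.237) with the class column alone. Ptprz1 gave -0.57 ± 0.25, Bcan -0.50 ± 0.24 and Hapln1 -0.37 ± 0.25 (adjusted p from 0.334 to 0.575). In NF Oligo neither edgeR nor DESeq2 called any of 4 members, 0 of them at an unadjusted p under 0.05, against 2.34% of 4496 genes: Bcan was at 766, 472 and 511 CPM at P21 and from 425 to 815 CPM in 5 saline libraries (-0.012 ± 0.21), and Vcan, Tnr and Ptprz1 lay between -0.26 and 0.075. OPC at P21 numbered 22 cells and were not tested.

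Ptprz1 was called lower in adults in endothelial cells, 1 of 3 members tested, where 12.4% of 10409 genes were called and 7.18% called and lower. It was at 17.3, 9.46 and 11.7 CPM at P21 and from 0.639 through 2.17 to 8.21 CPM in saline adults, without overlap (log2 fold change -2.08 ± 0.47, adjusted p = 0.0075). It passed the filter on low counts (5.32 CPM) through P21, with 3 of 3 P21 and 1 of 6 saline libraries above it, and without the filter it was at -2.06 (adjusted p = 0.00356). Ncan (-0.90 ± 0.60, adjusted p = 0.361) and Bcan (-0.41 ± 0.55, adjusted p = 0.677) were not called there, and their groups overlapped. In microglia Ptprz1 (-4.51 ± 0.67, adjusted p = 0.00536) and Bcan (-4.10 ± 0.81, adjusted p = 0.0281) were called lower in adults, 2 of 3 members tested, where 0.726% of 3993 genes were called and 0.701% called and lower. All 3 members passed the filter on low counts (38.7 CPM) through P21 alone, with 0 of 6 saline libraries above it, so their count is no measure against that share. Without the filter Ptprz1 was at -4.21 (adjusted p = 3.82e-12) and Bcan at -3.93 (adjusted p = 2.33e-06). Ptprz1 was at 97.9, 214 and 237 CPM in the P21 libraries, which held 149, 21 and 12 microglia, and from 0 through 3.03 to 16.6 CPM in saline adults. Bcan was at 71.4, 71.3 and 39.4 CPM at P21 and from 0 through 2.02 to 9.96 CPM in saline adults. Ncan, at 55.6, 47.5 and 78.8 CPM at P21 and at most 22.2 CPM in saline adults, was not called (-1.85 ± 0.54, adjusted p = 0.168), except with the class column alone (-2.07, adjusted p = 0.00128). Markers of other glia moved with these values: in P21 microglia 6 astrocyte markers summed to 532, 546 and 1813 CPM against 223 to 468 CPM in saline adults, and 5 OPC markers to 143 to 355 CPM against 0 to 13.8 CPM. In endothelial cells the OPC markers summed to 14.6 to 27.4 CPM at P21 and 2.00 to 18.4 CPM in saline adults. Their part in these results was not tested. Without P21 library 1 Ptprz1 was not called in microglia (-4.89, adjusted p = 0.0558) and Bcan did not pass the filter on low counts, and Bcan was not called without P21 library 2, P21 library 3 or saline library 3.

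Among 64 further genes of the matrix (other matrix proteins, receptors and ligands, chondroitin sulphate synthesis, degradation), 9 of the 47 tested in excitatory neurons were called with age, 2 higher and 7 lower in adults, a share of 19.1% beside the 18% of all genes. Sparc, a matricellular glycoprotein, fell by 2.09 on the log2 scale (SE 0.23), Adamts4, a protease that cleaves lecticans, by 1.07 (SE 0.34), and Xylt1 and Ust, which act in the synthesis and sulphation of chondroitin chains, by 0.88 (SE 0.19) and 0.83 (SE 0.25). Rtn4rl1, a Nogo receptor family member that binds chondroitin sulphate, rose by 0.93 (SE 0.14) and Hyal2, a hyaluronidase, by 0.61 (SE 0.13). The oligodendrocyte and OPC markers in the excitatory sums were also lower in adults, as given above, Sparc and Adamts4 were called lower in mature oligodendrocytes too, and the part of these cells in the excitatory values was not tested. In inhibitory neurons 10 of 30 were called, 4 higher and 6 lower, a share of 33.3% beside 14.1% of all genes. Sema3a, a secreted guidance cue that binds nets, fell by 2.15 (SE 0.37), Sdc3 by 0.99 (SE 0.19), Timp3, an inhibitor of metalloproteinases, by 0.96 (SE 0.22) and Ptprf, a receptor phosphatase, by 0.72 (SE 0.22), while Mdk, a ligand of Ptprz1, rose by 1.42 (SE 0.40), Egfr by 1.16 (SE 0.23), Mmp17 by 0.89 (SE 0.18) and Ust by 0.85 (SE 0.25). The differences between neuron classes were called for 6 of 48 (5.88% of all genes): Chst7 (2.79 ± 0.70), Ust (1.68 ± 0.36), Mmp17 (1.31 ± 0.17), Crtac1 (0.73 ± 0.17), Rtn4rl1 (-1.37 ± 0.28) and Sema3a (-1.75 ± 0.35). The makeup of the inhibitory class differed with age, with Inhib_7 and Inhib_8 at 10.5% of its cells at P21 and 41.1% in saline adults. The part of this makeup in the inhibitory values and the class differences was not tested. In other classes 1 of 22 was called in astrocytes (0.811% of all genes), 2 of 18 in NF Oligo (2.34%), 6 of 14 in mature oligodendrocytes (17.8% of all genes; no member passed the filter there), 8 of 38 in endothelial cells (12.4%) and 0 of 11 in microglia (0.726%). Sparc fell by 1.76 (SE 0.30) in astrocytes, by 1.04 (SE 0.30) in mature oligodendrocytes and by 1.66 (SE 0.14) in endothelial cells, while Sparcl1, a related glycoprotein, rose by 2.40 (SE 0.38) in NF Oligo and by 1.43 (SE 0.27) in mature oligodendrocytes.

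The second comparison asked whether cocaine IVSA changed these genes. Saline and cocaine were compared within each period, over the 3 periods and as an interaction of drug and period, in 5 classes and 19 comparisons, 79 tests of members in all. No member was called in any of them, by edgeR or by DESeq2, and 2 of the 79 had an unadjusted p under 0.05. In excitatory neurons, where 6 members were tested, 0% of genes were called at maintenance, 0% at 48 h, 0.706% at 15 days, 0% over all periods and 0% in the interaction. For the 4 members tested in inhibitory neurons the shares of all genes were 0%, 0%, 0.815%, 0% and 0.0582%, and for Ncan, tested alone in mature oligodendrocytes, 0%, 0%, 0.264%, 0.0466% and 0%. In astrocytes, with 5 members tested, 0% of genes were called at 48 h and 0.0135% at 15 days, and in OPC, with 7 members, 0.0339% and 0.0848%. Maintenance was not tested in astrocytes and OPC because saline library 3 held fewer than 10 of these cells.

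Ncan in excitatory neurons was at 77.9 and 66.2 CPM with saline and 82.7 and 76.1 CPM with cocaine at maintenance, 78.5 and 70.7 against 76.8 and 70.5 CPM at 48 h, and 86.6 and 77.3 against 81.2 and 79.2 CPM at 15 days. The groups overlapped in each period, and the log2 fold change of cocaine minus saline over all periods was 0.033 ± 0.062 (adjusted p = 0.927). Hapln4 in the same cells gave 0.042 ± 0.083 (adjusted p = 0.931). Hapln1 in inhibitory neurons was most variable at 48 h, with 258 and 68.4 CPM with cocaine around 149 and 113 CPM with saline. The 2 unadjusted p under 0.05 both came from Ptprz1 in inhibitory neurons. It was at 59.4 and 72.1 CPM with saline and 53.7 and 10.5 CPM with cocaine at maintenance, without overlap (-1.35 ± 0.58, adjusted p = 1), at 21.6 and 54.2 against 21.2 and 39.1 CPM at 48 h, and at 27.7 and 34.5 against 23.9 and 20.9 CPM at 15 days, again without overlap. The maintenance values rested on 8 and 21 UMIs with saline and 11 and 4 UMIs with cocaine. Leaving out 1 library at a time gave log2 fold changes at maintenance from -2.60 to -0.36. In excitatory neurons Ptprz1 lay the other way at 48 h (0.80 ± 0.41, unadjusted p = 0.0677, adjusted p = 0.983). Over all periods Ptprz1 in inhibitory neurons gave -0.68 ± 0.26 (unadjusted p = 0.0160, adjusted p = 0.937). In OPC, where all members but Hapln4 and Has3 were tested, Vcan gave -0.11 ± 0.21 at 48 h and -0.029 ± 0.22 at 15 days, Ptprz1 -0.13 ± 0.18 and -0.14 ± 0.19, Bcan -0.015 ± 0.21 and 0.33 ± 0.23, and Ncan -0.025 ± 0.23 and -0.17 ± 0.27. Acan, the main net lectican, gave 0.28 ± 0.42 and 0.073 ± 0.55 there, Tnr -0.27 ± 0.41 and -0.072 ± 0.48, and Hapln1 -0.70 ± 0.65 and 0.42 ± 0.71. In astrocytes Ncan gave -0.33 ± 0.24 and -0.068 ± 0.19, Bcan 0.26 ± 0.19 and 0.13 ± 0.17, Ptprz1 -0.18 ± 0.21 and -0.17 ± 0.19, and Hapln1 0.0029 ± 0.28 and -0.35 ± 0.24. Hapln4, at 4.64 ± 7.99 CPM in adult astrocytes, gave 2.43 ± 4.70 and 0.65 ± 1.11. The lowest adjusted p of a member in these 2 classes was 0.994. None of the 64 further matrix genes was called in a cocaine comparison.

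**Figure D5:**
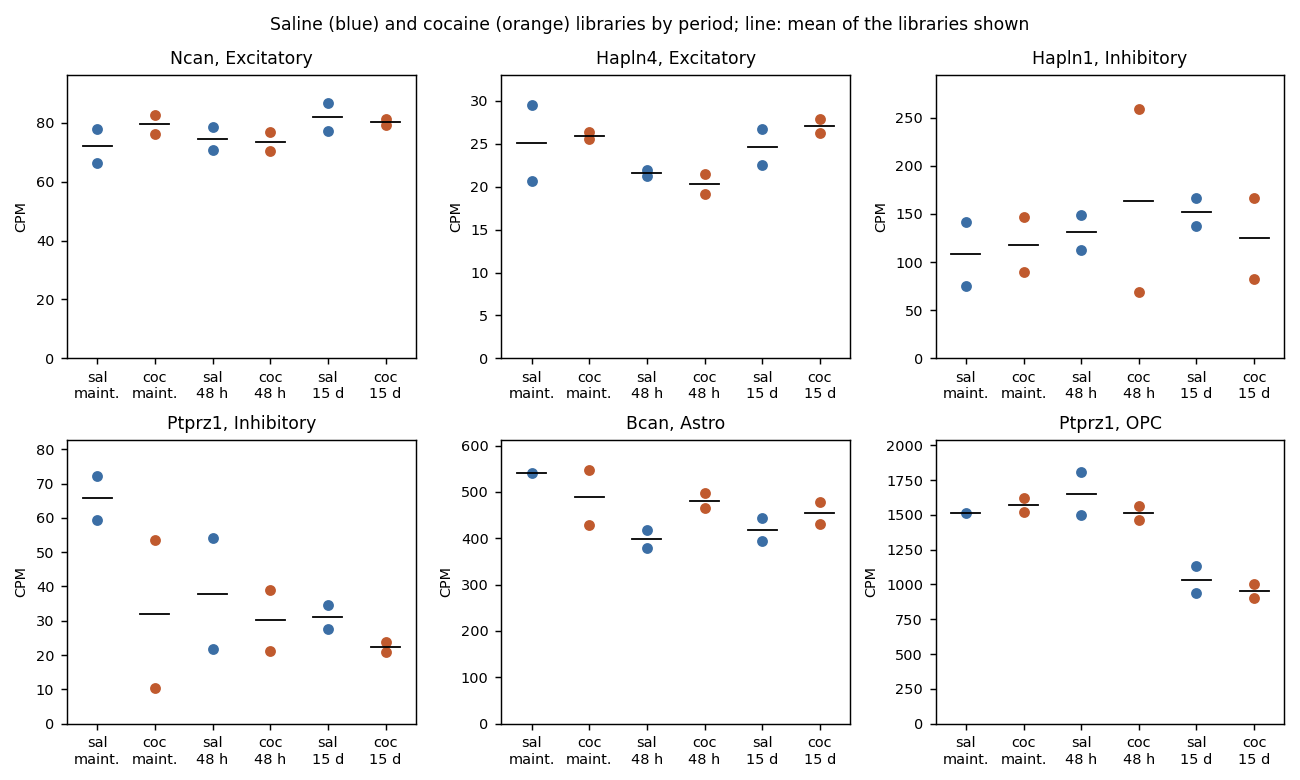
Level (y axis, CPM) of 5 of the genes in selected classes for saline and cocaine libraries in each period (x axis); each point is 1 library and the line is the mean of the libraries shown. Saline and cocaine libraries lie close together in excitatory neurons, and Ptprz1 in OPC is lower after 15 days of withdrawal with either drug.

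Period separated the glial levels of some members with either drug; this was noticed after the values were seen and is given as a description. In OPC Ptprz1 was at 903 to 1130 CPM in the 4 libraries of 15 days of withdrawal and 1465 to 1808 CPM in the 7 other adult libraries, Vcan at 388 to 401 and 433 to 614 CPM, and Ncan at 174 to 209 and 212 to 288 CPM. These 3 of 7 members lay wholly lower after 15 days, as did 3.08% of 6820 genes with a mean of at least 20 CPM. In astrocytes 1 of 4 members did, Ptprz1 at 202 to 274 against 334 to 535 CPM, beside 3.49% of 5679 genes. UMIs per cell moved with period as well, from 3811 to 4816 in OPC after 15 days against 2623 to 3502 in the other libraries, and from 4070 to 4862 against 2708 to 3670 in astrocytes. Their part in these levels was not tested.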

How the data were processed

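Cells of the PFC were measured by droplet single-cell RNA sequencing in 15 libraries. The authors aligned the reads to the mouse genome (mm9, NCBIM37) with Cell Ranger and clustered the cells with Seurat; the submitters' processing notes list Cell Ranger 13.1 and Seurat 2.1.0. The deposited counts are UMI counts per gene and cell, with a class, a cluster, an age, a treatment and a period for each retained cell. Per the methods, likely double droplets had been removed by the authors at both ages, in adults by a limit on genes per cell and by inspection of clusters; no doublet caller was run here. P21 cells had been named by the authors through correlation with adult clusters.

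Counts were summed per library and class over cells whose class and cluster agreed, leaving out 13 mitochondrial and 144 ribosomal protein genes (25988 of 26145 kept) and libraries with fewer than 10 cells of a class. edgeR 4.0.16 (TMM, quasi-likelihood, filterByExpr, robust; R 4.3.3) was fitted to all genes, with Benjamini-Hochberg adjustment over all genes tested; DESeq2 1.42.0 was an alternative. The rule for named genes was all 9 genes in every comparison, of 64 other matrix genes up to 4 rises and 4 falls among those called, the 3 genes of most similar pattern, and the 3 highest clusters; where it named more, the text gives counts or ranges. The tests were tested on simulated data. The members and lists were chosen with earlier results of these data known. Alternatives covered the tool, the filter, cell numbers, the class of a cell, the saline libraries used and leaving out each library. No further per-sample columns were used. The Cell Ranger version in the notes and that in the methods differ.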

Additional observations from a re-analysis of the deposited data

Results flagged for a closer look

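The change with age differed between inhibitory and excitatory neurons, by a test of the difference itself, for 3 of the 7 members tested, beside 5.88% of all genes. The difference of the log2 fold changes (adult saline minus P21, inhibitory minus excitatory) was 1.77 for Vcan, 1.70 for Hapln1 and 1.09 for Ptprz1 (edgeR, called). In excitatory neurons these genes were at 2.03 to 2.77 CPM (Vcan), 1.20 to 1.87 CPM (Hapln1) and 3.45 to 5.78 CPM (Ptprz1) at P21. A UMI was found there in 2.14%, 0.919% and 3.75% of P21 cells. The inhibitory side of the Vcan difference was thin too, with a UMI in 28 of 939 P21 cells. Each of the 3 calls was lost when certain single libraries were left out, and 1 to 3 members were called each time. Within clusters Hapln1 was tested only in Inhib_7 and Exc_21 and called lower in adults in both (-1.76 and -1.84). In Exc_21 it passed the filter on low counts through P21 alone. Adult Inhib_7 cells also held 256 CPM of Pvalb against 0 at P21, and whether other cells share the adult cluster was not tested. Inhib_7 and Inhib_8 also had the highest adult Vcan levels of the inhibitory clusters. Together they were 5.57 to 19.6% of inhibitory cells at P21 and 15.8 to 45.8% in saline adults. The part of this share in the differences of Hapln1 and Vcan was not tested. The levels of 26 groups of saline libraries were also examined for a library far from the others, and 0 were found.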

How the results depend on the processing

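The number of the 9 genes called with age changed by more than 1.5 times in the following cases, and the cause was not tested. In excitatory neurons 4 were called and 2 with equal numbers of cells (Ncan and Hapln4), where Vcan and Hapln1 were not tested. In inhibitory neurons 1 was called, 2 with at least 30 cells, 2 without the maintenance saline libraries, 2 with the class taken from the cluster alone and 0 with equal numbers of cells, where Ncan did not pass the filter and was not tested. In astrocytes 0 were called and 1 (Ncan) with DESeq2, with no filter on low counts, with all adult libraries and with equal numbers of cells, while its log2 fold change ran from -1.05 to -0.40 over 21 alternatives. In endothelial cells 1 was called (Ptprz1) and 0 with equal numbers of cells, where it was not tested either. In microglia 2 were called, 1 with all adult libraries, 1 with any 2 P21 libraries summed, and 0 without the maintenance saline libraries or with equal numbers of cells, where no member was tested. In the difference between neuron classes 3 were called and 1 with DESeq2. Leaving out 1 library at a time gave 3 to 5 calls in excitatory neurons, 1 to 2 in inhibitory neurons, 0 to 1 in astrocytes, 0 to 2 in microglia, 1 to 3 in the difference between neuron classes, and 0 in every cocaine comparison.

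Signs turned for values that were not called. With the class column alone, astrocytes gave log2 fold changes of 0.14 for Ptprz1, 0.38 for Hapln1 and 0.19 for Bcan. In NF Oligo Tnr gave 0.094 with all adult libraries, 0.0033 with the cluster alone and 0.14 with the class column alone, Vcan -0.059 with no filter, and Bcan 0.030 with equal numbers of cells, 0.0093 with the cluster alone and 0.21 with the class column alone. Hapln4 in Exc_1 gave -0.080 with DESeq2. Leaving out 1 library moved Bcan from -0.53 to 0.29 in excitatory neurons, from -0.17 to 0.27 in NF Oligo and from -0.68 to 0.15 in endothelial cells, Tnr from -0.27 to 0.069 and Vcan from -0.10 to 0.17 in NF Oligo. The alternatives on the class of a cell were chosen after seeing the data. A minimum of 30 cells could not be fitted for cocaine in inhibitory neurons and OPC, nor for age in microglia, for want of libraries. No paired analysis was possible because the numbers of the samples only count the libraries within each age; the 2 neuron classes of a library were paired in the test of their difference. Low UMI numbers limit Acan and Has3 in neurons, which were not tested.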

Other observations

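At P21 the deposited class and cluster disagreed for 459 cells, among them 64 called microglia with an excitatory cluster, 69 called endothelial and 52 called astrocytes with an excitatory cluster. The 64 cells held 4546 CPM of 6 microglial markers, against 28649 CPM in cells whose labels agreed, and 1239 CPM of 5 excitatory markers, as did excitatory neurons whose labels agreed. The 52 cells held 2548 CPM of 6 astrocyte markers, against 17666 CPM in cells whose labels agreed. These cells entered no sum other than the alternatives that took the class of a cell from 1 label alone.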
